A study of Homo sapiens with 6 samples.

Results

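Urothelial lineage transcription factors are the DNA-binding proteins that set and keep the identity of bladder epithelium. Their transcripts were examined as 10 genes, GATA3, PPARG, FOXA1, ELF3, GRHL2, GRHL3, TP63, RXRA, TFAP2A and TFAP2C, chosen by gene symbol and matched to 10 rows of a table of 60605 Ensembl genes. Total RNA was sequenced from UMUC3, an established human bladder cancer cell line, with 3 libraries from cells infected with the TIM-1-PLVX-IRES-zsgreen lentivirus (the TIM-1 group) and 3 from cells infected with PLVX-IRES-Zsgreen, the same vector without TIM-1 (the empty-vector group). Cells of both groups therefore carried a pLVX vector with the ZsGreen marker, and uninfected cells are not analysed here. The labels give neither the promoter in front of TIM-1, nor a selection of infected cells, nor separate cultures for the replicates, so a p-value here reflects how far single libraries differ, which can be technical variation.

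In normal urothelium the nuclear receptor PPARG, bound to its partner RXRA, works with GATA3, the pioneer factor FOXA1 and the ETS factor ELF3 to turn on genes of the luminal layers. The grainyhead-like factors GRHL2 and GRHL3 maintain cell junction genes, TP63 marks the basal layer, and the AP-2 factors TFAP2A and TFAP2C are expressed in many epithelia. Bladder cancers are commonly sorted into luminal and basal classes by these factors and their targets.

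Library totals ran from 14312387 to 18605914 gene counts. HAVCR1, the gene of TIM-1, had 7069, 9824 and 11479 counts in the TIM-1 libraries, against 4, 0 and 0 in the empty-vector libraries, so each library matched its label. Many genes of the epithelial program that most of these factors serve had few or no counts. The markers named in this paragraph were picked after their values were seen. Among 20 junction and epithelial genes known from work on GRHL factors, 5 had no count in any library (ESRP1, EPCAM, PRSS8, SPINT1 and MAL2), the E-cadherin gene CDH1 had 2 counts in 1 TIM-1 library and 0 in all other libraries, and 6 were abundant enough to test. Of 20 luminal markers, UPK3A, KRT20, SNX31 and TMPRSS2 were at 0 everywhere, and KRT18 averaged 343 ± 62.8 CPM (a count scaled to the size of its library, per the TMM-adjusted total) in TIM-1 libraries and 409 ± 98.7 CPM in empty-vector libraries (SD, n = 3 each). Of 18 basal markers, 9 were at 0, among them KRT6A, KRT14 and DSG3, and KRT5, listed under p63 targets too, had no count with TIM-1 and 1 count in each empty-vector library. Other members of both lists were abundant. The luminal markers summed to 431 to 569 CPM in TIM-1 libraries and 472 to 703 CPM in empty-vector libraries. The basal markers summed to 812 to 823 CPM in TIM-1 libraries and 745 to 823 CPM in empty-vector libraries, with CD44 and EGFR the most abundant of those tested. The summed level of 12 mesenchymal markers was 1787 to 2123 CPM in TIM-1 libraries and 1957 to 2459 CPM in empty-vector libraries, mostly from the filament gene VIM, and that of the 20 epithelial genes was 26.3 to 28.1 CPM in TIM-1 libraries and 23.9 to 24.6 CPM in empty-vector libraries. Of 8 leukocyte and endothelial markers 5 were at 0, and their sum was at most 0.270 CPM in TIM-1 libraries and 0.0626 CPM in empty-vector libraries.

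The 10 genes fell into 3 classes of level. RXRA and TFAP2A were well expressed, PPARG, TFAP2C, FOXA1 and GATA3 were low, and ELF3, GRHL2, GRHL3 and TP63 were absent or nearly so. Only the first 6 passed the filter on low counts and could be tested, so no count below speaks for all 10 genes. Levels of different genes are compared per kilobase of annotated exon (CPM per kb). In the TIM-1 group TFAP2A stood at 7.96 ± 0.251, RXRA at 7.92 ± 1.80, PPARG at 1.78 ± 0.107, TFAP2C at 1.59 ± 0.0554, FOXA1 at 0.588 ± 0.113 and GATA3 at 0.233 ± 0.0414 CPM per kb (SD, n = 3). In the empty-vector group RXRA stood at 7.93 ± 1.27, TFAP2A at 7.60 ± 0.506, TFAP2C at 1.47 ± 0.299, PPARG at 1.16 ± 0.165, GATA3 at 0.560 ± 0.201 and FOXA1 at 0.506 ± 0.0528 CPM per kb (SD, n = 3). TFAP2A and RXRA overlapped in both groups, so their order is not set. PPARG lay above TFAP2C, and FOXA1 above GATA3, without overlap in the TIM-1 libraries. The lowest TIM-1 value of PPARG (1.66) was barely above the highest of TFAP2C (1.65 CPM per kb). Both pairs overlapped in the empty-vector libraries. The order within those pairs with the empty vector also depends on the length used, since with the longest transcript PPARG (2.59) exceeded TFAP2C (1.54) and FOXA1 (0.704) exceeded GATA3 (0.616 CPM per kb).

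**Figure D1:**
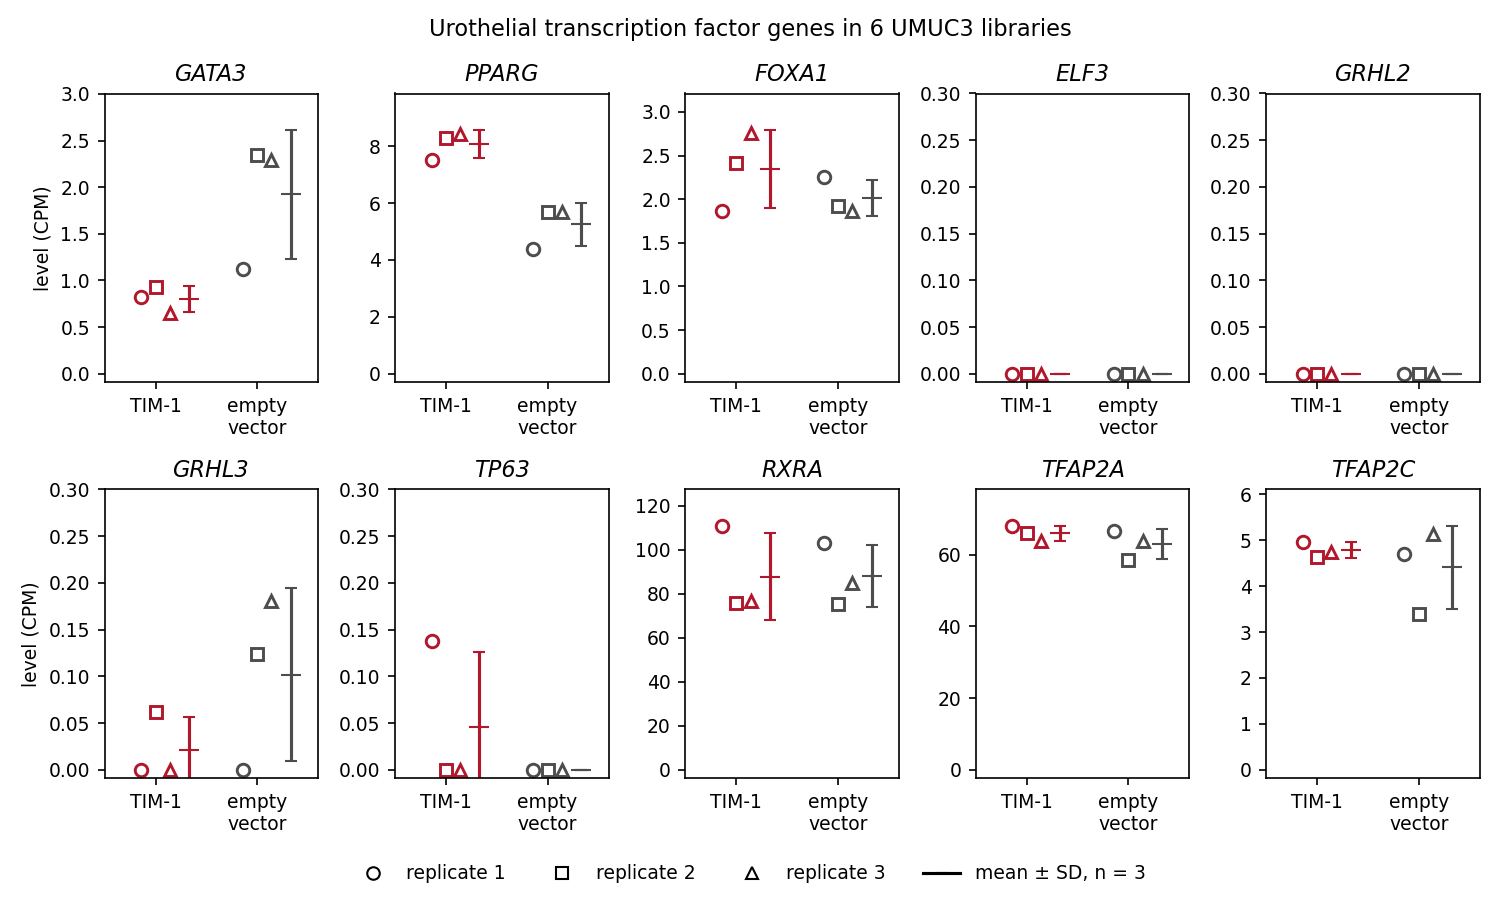
Level of each of the 10 genes in CPM (vertical axis, linear, own scale for each gene) in the 3 TIM-1 libraries (red, left) and the 3 empty-vector libraries (grey, right), with symbols for replicate numbers and bars for mean ± SD, cut off just under 0. The groups are apart for GATA3, lower with TIM-1, and for PPARG, higher with TIM-1, and ELF3 and GRHL2 lie at 0 in all 6 libraries.

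Of the tested genes, GATA3 fell and PPARG rose with TIM-1 when same-numbered libraries were taken as pairs, and none of the 6 passed when the libraries were taken as unpaired. The unpaired edgeR quasi-likelihood test called 0.0138% of 14479 tested genes, and 0 of the 6, of which GATA3 and PPARG had unadjusted p under 0.05, as had 795 genes in all. DESeq2 called 0 of the 6 without pairs and, with pairs, 0 of the 5 to which it gave an adjusted p. With the replicate number as a block, edgeR called 3.22% of all tested genes higher and 1.79% lower, and of the 6 it called 1 higher (PPARG) and 1 lower (GATA3). The values of the groups did not overlap for 1 gene higher and 1 lower of the 6, the same 2 genes, against 6.60% and 5.06% of all tested genes. The median log2 fold change of the 6 was 0.097 with the block, against 0.0001 over all tested genes.

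GATA3, the zinc-finger factor used in pathology as a marker of urothelial origin, was at or under 1 CPM in every TIM-1 library. The gene (ENSG00000107485) spans 8045378 to 8075203 of chromosome 10, plus strand, in GRCh38. Its counts reached 12, 15 and 12 in replicates 1, 2 and 3 of the TIM-1 group, against 18, 38 and 38 counts in empty-vector replicates 1, 2 and 3. In CPM these were 0.828, 0.928 and 0.648 with TIM-1, against 1.13, 2.35 and 2.29 with the empty vector. All 3 TIM-1 libraries lay below all 3 empty-vector libraries, and empty-vector replicate 1 lay nearest to the TIM-1 values. Taken as pairs, the libraries gave a log2 fold change of -1.25 (SE 0.39, edgeR adjusted p = 0.0457), and taken as unpaired one of -1.26 (SE 0.39, edgeR adjusted p = 0.676). Within the pairs the log2 ratio was -0.45 for replicate 1, -1.34 for replicate 2 and -1.82 for replicate 3. The paired call rests on replicates 2 and 3, whose matching across the groups the data did not settle. It was kept when the pair of replicate 1 was left out (log2 fold change -1.57, edgeR adjusted p = 0.0236) but not when that of replicate 2 (-1.19, edgeR adjusted p = 0.319) or of replicate 3 was (-0.94, edgeR adjusted p = 0.382), and a block that only set replicate 1 apart gave edgeR adjusted p = 0.0608. Leaving out empty-vector replicate 1 put the mean of its group at 2.32 CPM, against 1.92 CPM with it. In RNA from whole cultures, fewer cells with a transcript and less of it per cell cannot be told apart.

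PPARG, the ligand-activated receptor of urothelial differentiation, was higher in every TIM-1 library than in any empty-vector library. The gene (ENSG00000132170) spans 12287368 to 12434356 of chromosome 3, plus strand. Its counts reached 109, 134 and 156 in replicates 1, 2 and 3 of the TIM-1 group, against 70, 92 and 94 counts in empty-vector replicates 1, 2 and 3. In CPM these were 7.52, 8.29 and 8.42 with TIM-1, against 4.38, 5.69 and 5.67 with the empty vector. Replicate 1 was the lowest library of its group in both groups. The log2 ratio was 0.78, 0.54 and 0.57 in the pairs of replicates 1, 2 and 3, so unlike that of GATA3 it was of similar size in each. Taken as pairs, the libraries gave a log2 fold change of 0.62 (SE 0.17, edgeR adjusted p = 0.0185), and taken as unpaired one of 0.62 (SE 0.18, edgeR adjusted p = 0.644). The call was lost without the pair of replicate 1 (edgeR adjusted p = 0.0778), of replicate 2 (0.150) and of replicate 3 (0.0593), with log2 fold changes of 0.55 to 0.67. DESeq2 with the block gave adjusted p = 0.329 for PPARG and no adjusted p for GATA3.

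**Figure D2:**
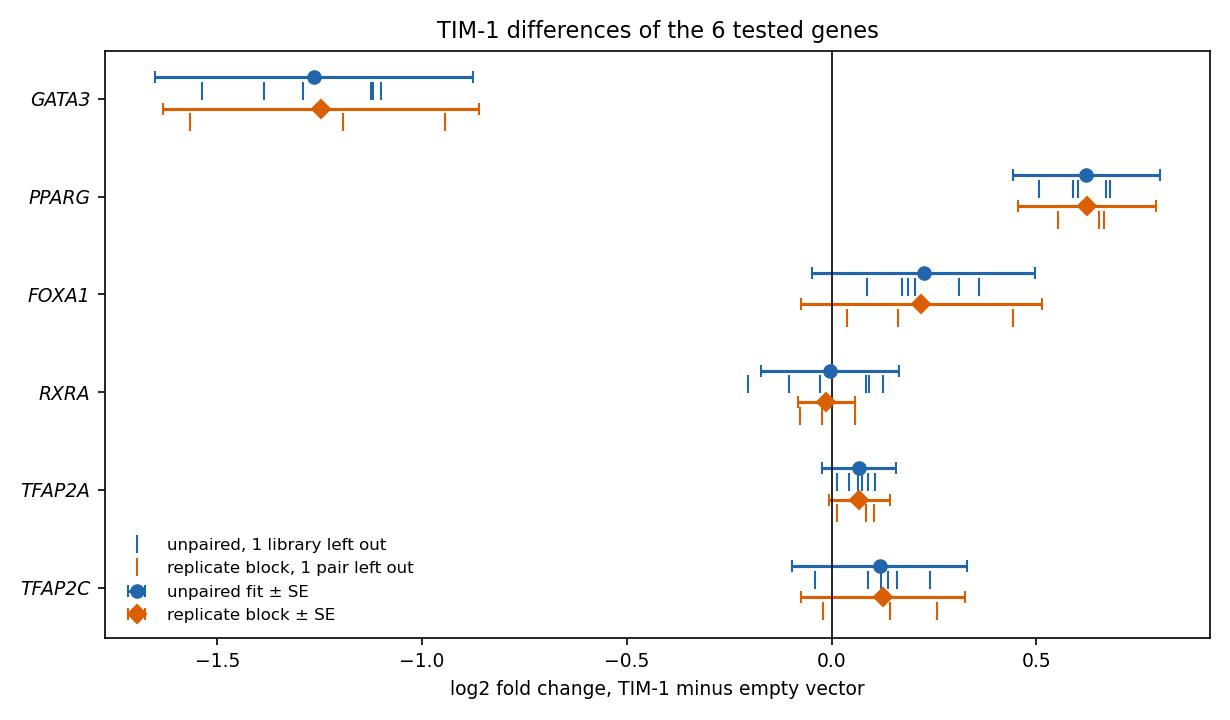
Log2 fold change, TIM-1 minus empty vector (horizontal axis), of the 6 tested genes from the unpaired fit (blue circles) and the fit with the replicate number as a block (orange diamonds), each ± SE, with tick marks for fits with 1 library or 1 pair left out. GATA3 stays below 0 and PPARG above 0 in every fit shown, while the ticks of RXRA and TFAP2C fall on both sides of 0.

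Sequences at annotated starts are shown for GATA3 and PPARG, the genes called in the paired test. Each has the 250 bases before the start and the 50 from the start on. RefSeq lists 6 such windows for GATA3 and 6 for PPARG on GRCh38.p14, and counts per gene do not tell which start was used. Capitals mark matches, on either strand, to GATAA (the core bound by GATA factors), TGTTTAC (FOX factors), GCCNNNGGC (AP-2 factors), AACCNGTT (grainyhead-like factors), GGAAGT (ETS factors) or the direct repeat of AGGTCA with 1 base between its copies (PPAR with RXR), and no marked matches overlap. The windows are the outermost start of GATA3 on chromosome 10 from 8045083 to 8045382, the outermost start of PPARG on chromosome 3 from 12287118 to 12287417, and a start of PPARG further in, from 12301725 to 12302024, chosen as the PPARG window with the most matches, all on the plus strand:
GATA3 outermost start: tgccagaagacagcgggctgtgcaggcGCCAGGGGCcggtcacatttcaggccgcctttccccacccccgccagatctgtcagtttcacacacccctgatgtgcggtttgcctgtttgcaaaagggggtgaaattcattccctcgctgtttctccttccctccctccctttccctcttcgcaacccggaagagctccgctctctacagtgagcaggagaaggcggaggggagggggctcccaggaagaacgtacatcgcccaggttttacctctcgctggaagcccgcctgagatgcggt
PPARG outermost start: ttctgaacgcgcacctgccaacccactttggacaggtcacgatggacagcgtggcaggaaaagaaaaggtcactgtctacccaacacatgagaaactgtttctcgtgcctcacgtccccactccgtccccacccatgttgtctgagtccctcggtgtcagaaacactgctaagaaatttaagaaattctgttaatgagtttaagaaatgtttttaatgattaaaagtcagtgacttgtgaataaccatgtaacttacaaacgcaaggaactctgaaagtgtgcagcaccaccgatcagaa
PPARG inner start: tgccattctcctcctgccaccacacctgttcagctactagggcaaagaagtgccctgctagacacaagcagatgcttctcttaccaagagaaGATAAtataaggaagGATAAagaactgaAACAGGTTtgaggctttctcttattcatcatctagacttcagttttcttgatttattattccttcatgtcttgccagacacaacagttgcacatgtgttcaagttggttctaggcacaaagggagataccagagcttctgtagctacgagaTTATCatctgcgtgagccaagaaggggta

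The outermost window of GATA3 held 1 AP-2 match, 223 bases before the start, and that of PPARG held 0 matches to any of the 6 motifs. The inner PPARG window, picked for having the most, held 3 GATAA matches and 1 grainyhead-like match. Windows of other GATA3 starts held 1 GATAA match (8060457), 1 AP-2 match each (8053641 and 8054688), 1 GGAAGT match (8051236) or 0 (8049854). Those of other PPARG starts held 1 GATAA match (12351417), 1 GGAAGT match (12301767) or 0 (12289060 and 12289070). Over all 35116 RefSeq windows of this length, GATAA was present in 22.7%, the AP-2 motif in 23.2%, GGAAGT in 22.8%, TGTTTAC in 3.42%, the grainyhead-like motif in 1.73% and the direct repeat in 0.0228%. These shares are for any single window, not for one picked as the richest of its gene. A match is a string of letters and does not show binding, and a link of matches to the fold changes was not tested. Windows are given for 8 of the 10 genes. None was found for TFAP2C. Windows on chromosome 8, where GRHL2 lies, were left out of the search, so GRHL2 is not covered. The median number of CpG dinucleotides over all windows was 14. RXRA had windows with 65 and 8 CpG, TFAP2A had 18 in each of its windows, FOXA1 had 34 in its only one, GATA3 had 5 to 36 and PPARG 1 to 10. Among the genes with almost no reads, ELF3 and TP63 had 1 window each with 7 CpG and no motif match, and GRHL3 had windows with 7 and 10 CpG, with GATAA matches in both and an AP-2 match in one.

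RXRA, the heterodimer partner of PPARG, was the most abundant of the 10 genes by CPM and, unlike PPARG, did not pass either test. The gene (ENSG00000186350) spans 134317098 to 134440585 of chromosome 9, plus strand. Its level was 110.8, 75.8 and 76.8 CPM in TIM-1 replicates 1, 2 and 3, against 103, 75.6 and 85.0 CPM in empty-vector replicates 1, 2 and 3. The groups overlapped and replicate 1 was the highest library of each. Its paired log2 fold change came to -0.012 (SE 0.070, edgeR adjusted p = 0.954). RXRA did differ between replicate 1 and replicates 2 and 3, by 0.45 on the log2 scale (SE 0.075, edgeR adjusted p = 8.99e-05), in a comparison that called 11.6% of all tested genes higher and 12.0% lower in replicate 1. RXRA was the only one of the 6 tested genes called there, and the differences of the other five ran from -0.59 for GATA3 to 0.11 for TFAP2C.

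**Figure D3:**
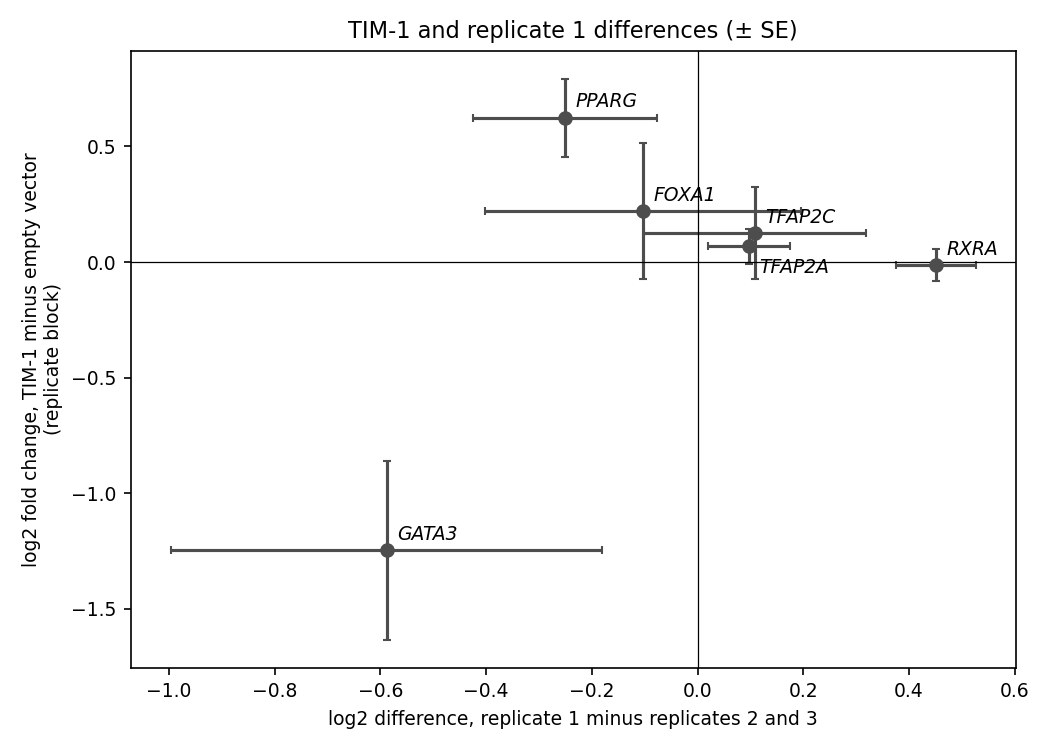
TIM-1 log2 fold change with the replicate block (vertical axis) against the log2 difference of replicate 1 from replicates 2 and 3 (horizontal axis) for the 6 tested genes, with bars of ± SE. RXRA lies at 0.45 on the horizontal and near 0 on the vertical axis, and GATA3 and PPARG lie far from 0 on the vertical axis, at -1.25 and 0.62.

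The AP-2 genes TFAP2A and TFAP2C did not pass either test, and the estimate for TFAP2C was the less precise. TFAP2A (ENSG00000137203), which spans 10393186 to 10419659 of chromosome 6, minus strand, stood at 67.9, 66.0 and 63.7 CPM in TIM-1 replicates 1, 2 and 3, against 66.6, 58.4 and 63.6 CPM in empty-vector replicates 1, 2 and 3. The groups overlapped, with a paired log2 fold change of 0.068 (SE 0.074, edgeR adjusted p = 0.684). TFAP2C (ENSG00000087510), which spans 56629302 to 56639283 of chromosome 20, plus strand, stood at 4.97, 4.64 and 4.75 CPM with TIM-1, against 4.70, 3.40 and 5.13 CPM with the empty vector. Its empty-vector libraries spanned the TIM-1 values, and its paired log2 fold change came to 0.13 (SE 0.20, edgeR adjusted p = 0.802). The antisense genes TFAP2A-AS1 and TFAP2A-AS2 share 438 and 941 exon bases with TFAP2A, and their counts, 12 to 25 and 17 to 25 with TIM-1 and 18 to 24 and 16 to 30 with the empty vector, were small beside its 944 to 1181. Whether the counting used strand is unknown, so reads of such overlaps cannot be assigned to 1 gene.

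FOXA1 (ENSG00000129514), which opens chromatin for other factors, spans 37589984 to 37596059 of chromosome 14, minus strand. Its counts reached 27, 39 and 51 in replicates 1, 2 and 3 of the TIM-1 group, against 36, 31 and 31 counts in the empty-vector replicates. This gave 1.86, 2.41 and 2.75 CPM with TIM-1, against 2.26, 1.92 and 1.87 CPM with the empty vector. TIM-1 replicate 1 was the lowest library of all and the other two TIM-1 libraries were above every empty-vector library. The log2 ratio was -0.28 in the replicate 1 pair, and 0.33 and 0.56 in the pairs of replicates 2 and 3, with a paired log2 fold change of 0.22 (SE 0.29, edgeR adjusted p = 0.755).

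The remaining 4 genes gave almost no reads. ELF3 and GRHL2 had 0 counts in all 6 libraries, and a count of 0 allows up to 3 counts, or 0.162 to 0.207 CPM in the TIM-1 libraries and 0.181 to 0.188 CPM in the empty-vector libraries (counting error only). GRHL3, which acts in terminal urothelial differentiation, had 0, 1 and 0 counts with TIM-1, against 0, 2 and 3 counts with the empty vector. TP63 had 2, 0 and 0 counts with TIM-1, against 0 in each empty-vector library. Both genes were at or under the detection limit of 3 counts in every library, so no fold change is given. At the ELF3 locus the antisense gene ELF3-AS1, which shares 664 exon bases with ELF3, had 13, 20 and 17 counts with TIM-1, against 21, 15 and 15 counts with the empty vector, although ELF3 itself (202007945 to 202017188 of chromosome 1) had none.

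The GATA, PPAR, RXR, AP-2, ELF and GRHL families each had at least 1 expressed paralog, and the 10 genes were not always the leading ones. The values of this paragraph go beyond the naming rule, and the genes were singled out after their values were seen. In the GATA family GATA2 led with 13.6 ± 2.27 CPM per kb with TIM-1 and 15.3 ± 2.78 with the empty vector, followed by GATA4 (2.49 ± 0.326 and 2.08 ± 0.235) and GATA6 (1.18 ± 0.136 and 1.43 ± 0.107), all above GATA3. PPARD, with 7.71 ± 1.02 CPM per kb with TIM-1 and 7.92 ± 0.937 with the empty vector, exceeded PPARG. RXRB (11.1 ± 0.986 and 10.5 ± 0.741) had higher means than RXRA (7.92 ± 1.80 and 7.93 ± 1.27). That order was not checked with the longest transcript as length. The broadly expressed ETS genes ELF4 (14.9 ± 1.26 and 13.0 ± 1.07), ELF1 and ELF2 were present, while the epithelial ones ELF5 and EHF were at 0 like ELF3. GRHL1 was the only grainyhead-like gene past the filter, at 0.766 ± 0.135 CPM per kb with TIM-1 and 0.725 ± 0.116 with the empty vector (SD, n = 3 each throughout).

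**Figure D4:**
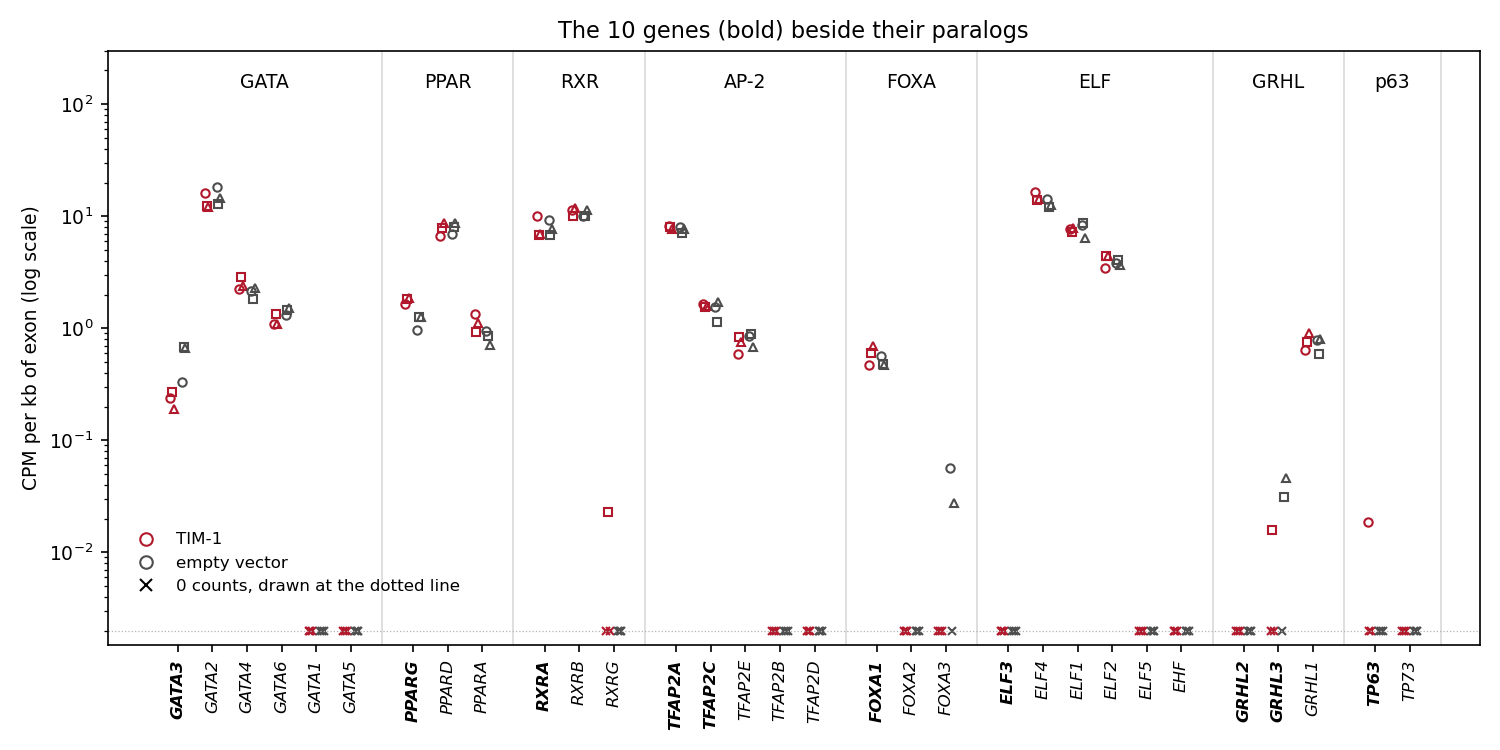
CPM per kb of exon (vertical axis, log scale) of the 10 genes (bold) and paralogs of them, by family, in the 3 TIM-1 libraries (red) and the 3 empty-vector libraries (grey). Crosses on the dotted line are counts of 0, and GATA2, with means of 13.6 and 15.3 CPM per kb, lies far above GATA3, while ELF5 and EHF lie at 0 beside ELF3.

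Of the 22 paralogs 12 were tested, and 8 had no count in any library. In the paired test 1 rose and 0 fell, against 3.22% and 1.79% of all tested genes, a difference that was not tested. PPARA, the receptor of fatty acid oxidation genes and a relative of PPARG, averaged 14.9 ± 2.84 CPM in TIM-1 libraries and 11.0 ± 1.66 CPM in empty-vector libraries (SD, n = 3 each, paired log2 fold change 0.43, SE 0.13, edgeR adjusted p = 0.0417). Its groups overlapped, and the call was lost in the unpaired test (edgeR adjusted p = 0.885), by DESeq2 with the block (0.453) and without the pair of replicate 1 (edgeR adjusted p = 0.148) or replicate 3 (0.324). The median log2 fold change of the tested paralogs was 0.032, against 0.0001 over all tested genes.

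Of 20 genes known as targets of PPARG and RXR in fat, liver or bladder cells, 15 were tested. In the paired test 2 rose and 0 fell, against 3.22% and 1.79% of all tested genes, a difference that was not tested. The median log2 fold change was 0.080, against 0.0001 over all tested genes. TXNIP, which encodes a thioredoxin-binding protein that limits glucose uptake, had 7.24, 8.11 and 7.83 CPM in TIM-1 replicates 1, 2 and 3, against 4.07, 3.77 and 2.11 CPM in empty-vector replicates 1, 2 and 3. The groups did not overlap (paired log2 fold change 1.24, SE 0.20, edgeR adjusted p = 2.13e-05; unpaired 0.379), and the paired call was kept without each pair in turn. ANGPTL4, a secreted inhibitor of lipoprotein lipase, rose by 0.26 on the log2 scale (SE 0.080, edgeR adjusted p = 0.0407), and its level in replicate 1 exceeded that in replicates 2 and 3 by 1.35. ANGPTL4 was not called in the unpaired test (edgeR adjusted p = 0.981), with a block for replicate 1 only (0.0828), without the pair of replicate 2 (0.674) or by DESeq2 with the block (0.344). The classical PPARG targets FABP4, PDK4, LPL and PLIN2 were singled out after their values were seen. FABP4 and PDK4 had 1 count each over all 6 libraries, LPL had 0, and PLIN2 had a paired log2 fold change of 0.13 (edgeR adjusted p = 0.459).

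Of 20 p63 target genes 13 were tested. In the paired test 2 rose and 0 fell, against 3.22% and 1.79% of all tested genes, a difference that was not tested. The median log2 fold change was 0.23, against 0.0001 over all tested genes. TP63 itself was nearly absent, as given above. LAMB3, a chain of the basement membrane protein laminin-332, stood at 31.6, 35.4 and 32.9 CPM in TIM-1 replicates 1, 2 and 3, against 18.4, 18.1 and 20.3 CPM in empty-vector replicates 1, 2 and 3. The groups were far apart (paired log2 fold change 0.81, SE 0.10, edgeR adjusted p = 8.31e-08; unpaired 0.0892), and the paired call was kept without each pair in turn. ITGA6, the integrin chain that binds laminin, rose by 0.27 (SE 0.069, edgeR adjusted p = 0.0111), a call not kept in the unpaired test (0.730), by DESeq2 with the block (0.124), or without the pair of replicate 2 (0.324) or of replicate 3 (0.0603).

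The counts of called markers are to be read against the 3.22% higher and 1.79% lower over all tested genes, and the difference from that background was not tested. Of the 8 tested luminal markers 0 rose and 1 fell in the paired test, with a median log2 fold change of 0.022. KRT18, a keratin of simple epithelia, had a paired log2 fold change of -0.24 (SE 0.061, edgeR adjusted p = 0.00946), but its groups overlapped, it was also lower in replicate 1 (log2 difference -0.51, edgeR adjusted p = 5.58e-05), and the call was not kept in the unpaired test (0.917), nor without the pair of replicate 2 (0.0632) or of replicate 3 (0.147). Of 6 tested epithelial genes 0 passed, with a median of 0.20, and the most abundant of them, CGN and ERBB3, had log2 fold changes of 0.073 and 0.27 (edgeR adjusted p = 0.823 and 0.520). Of 4 tested basal markers 0 passed, with a median of 0.074, and CD44 and EGFR had log2 fold changes of 0.068 and 0.081 (edgeR adjusted p = 0.584 and 0.548). Of 9 tested mesenchymal markers 1 rose, the matrix protein gene SPARC, with 135 ± 5.11 CPM in TIM-1 libraries and 106 ± 5.65 CPM in empty-vector libraries (SD, n = 3 each, paired log2 fold change 0.34, SE 0.066, edgeR adjusted p = 0.000431, 0.112 without the replicate 2 pair and 0.575 unpaired), and the median of the list was 0.048.

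**Figure D5:**
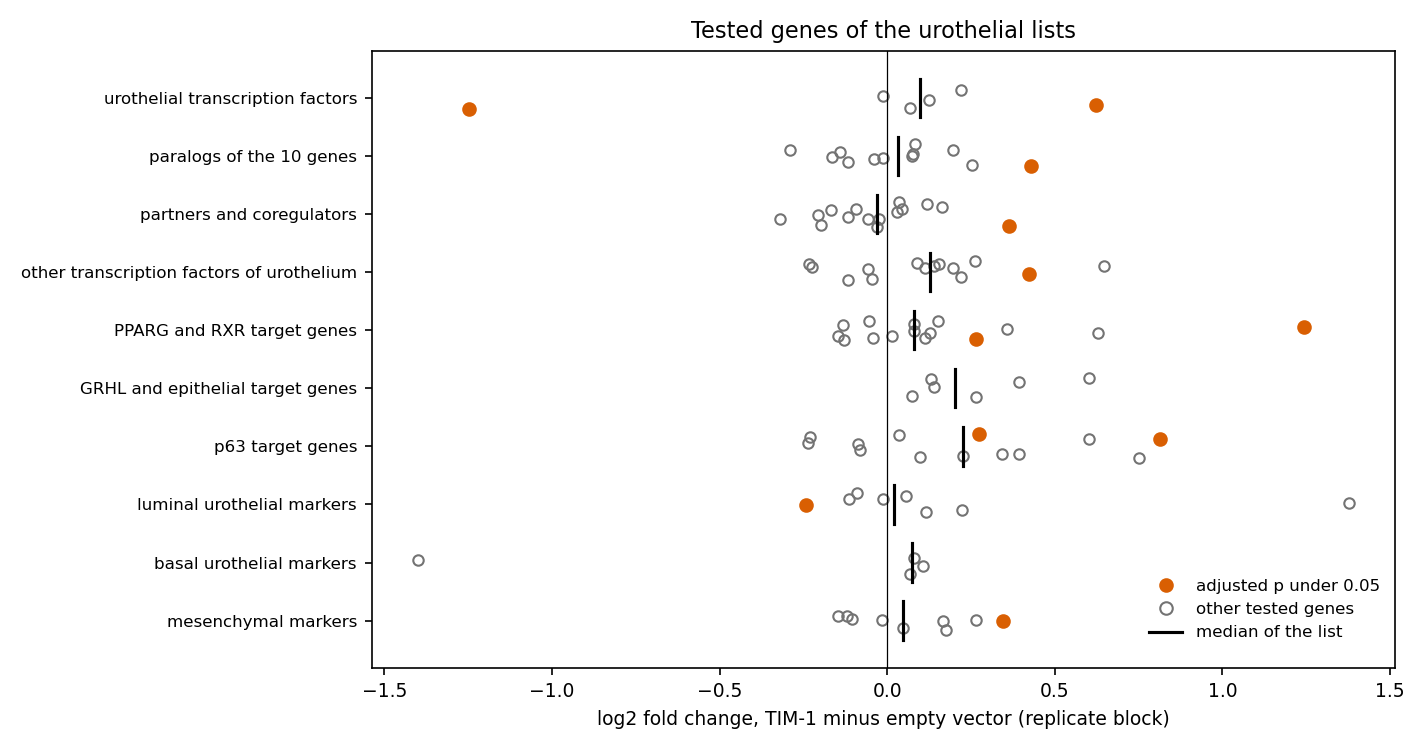
Paired log2 fold change, TIM-1 minus empty vector (horizontal axis), of each tested gene of the 10 transcription factors and of 9 related lists (rows), with vertical bars at list medians and filled points for edgeR adjusted p under 0.05. TXNIP at 1.24, LAMB3 at 0.81 and PPARG at 0.62 are the highest filled points and GATA3 at -1.25 is the lowest.

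Genes whose levels ran most in parallel with GATA3 and PPARG over the 6 libraries were looked up among 11479 other protein-coding genes with a mean of at least 1 CPM. The highest Pearson correlations of log2 CPM with GATA3 were those of SMIM13 (0.997), HDAC2 (0.994) and RMI1 (0.991). Their own paired log2 fold changes were smaller, at -0.19, -0.072 and -0.19. With PPARG they were those of SPATA24 (0.994), GRN (0.988) and RAB9A (0.986), with log2 fold changes of 0.57, 0.22 and 0.15. With so many genes and 6 libraries that share a contrast, correlations of this size are a description only.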

How the data were processed

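RNA of 6 UMUC3 libraries was sequenced. The labelled treatment gave the groups, and sample titles gave the replicate numbers. The authors deposited a table of raw counts, unnormalized read numbers for 60605 Ensembl genes. The submitters' processing notes name the build hg38 and the tools HISAT2 2.0.5, featureCounts 1.5.0-p3 and DESeq2 1.16.1. Annotation release, strand setting and treatment of multi-mapping reads were not given in the sources used here, so counts of overlapping genes are uncertain.

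Symbols came from a table of gene names, and positions and exon lengths from GENCODE 29 on GRCh38, the assembly of hg38. Each of 186 list entries had a symbol match. The genes, lists, tests and naming rule were chosen with earlier results of these data known. Named genes are the 10 factors, HAVCR1, up to 3 called genes per list and fit (or the 2 most abundant where none was called), annotated genes overlapping a factor, and the 3 genes most like each called factor. Genes named beyond this are marked in the text.

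The groups were compared in R 4.3.3 by the edgeR 4.0.16 quasi-likelihood test (robust, TMM factors) on 14479 genes that filterByExpr kept at a minimum count of 10. Two-sided p-values were adjusted (Benjamini-Hochberg) over these genes and called at 0.05. The unpaired test had the group as its only term. Fold changes set TIM-1 over empty vector, and CPM uses TMM-scaled totals. The test was checked on simulated counts that held no shift particular to replicate 1. That check does not cover this feature of the data. Because every pair of same-numbered libraries deviated together from its group means, with correlations of 0.53, 0.23 and 0.26 for replicates 1, 2 and 3 (limit 0.1), the fit with the replicate number as a block is given beside the unpaired one. No label says what a number stands for, and the data set only replicate 1 apart. Different numbers correlated at -0.40 to 0.26. When numbers 2 and 3 were crossed between the groups, the correlations were 0.26 and 0.19, which also passed the limit. The limit therefore cannot tell these numbers apart, and their matching rests on the sample titles alone. The comparison of replicate 1 with replicates 2 and 3 had the group as a term. No library was a copy of another of its group (chi-square per degree of freedom at least 4.16). Total counts bound the precision of low genes such as GATA3, and detection limits cover counting error only. Alternatives were DESeq2 1.42.0, other scaling, no filter and libraries or pairs left out. RefSeq promoter windows were searched for motifs.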

Additional observations from a re-analysis of the deposited data

How the results depend on the processing

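Without pairing, the edgeR test called 2 genes higher and 0 lower. Values of other settings follow as higher and lower. DESeq2 without pairing gave 24 and 1, edgeR without the low-count filter 60 and 12, and leaving out single libraries 1 to 8 and 0 to 1. The replicate block gave 466 and 259, with DESeq2 131 and 78, a block for replicate 1 only 348 and 162, and the blocked fit without replicates 1, 2 and 3 gave 440 and 398, 152 and 57, and 339 and 134. Leaving out both replicate 1 libraries without a block, chosen after seeing the data, gave 175 and 82. Of the 6 tested transcription factor genes the replicate block called 1 higher and 1 lower, a block for replicate 1 only 1 higher and 0 lower, and the blocked fit without replicate 1 called 0 higher and 1 lower. All other settings called 0 of the 6. With both replicate 1 libraries left out and no block, GATA3 had a log2 fold change of -1.57 (edgeR adjusted p = 0.0618) and PPARG one of 0.55 (0.138). The unpaired log2 fold change ran from -1.54 to -1.10 for GATA3 and from 0.51 to 0.68 for PPARG with 1 library left out. Small differences changed sign. That of RXRA was 0.056 in the blocked fit without replicate 3 and ran from -0.21 to 0.12 with 1 library left out, and that of TFAP2C was -0.020 in the blocked fit without replicate 2 and ran from -0.042 to 0.24. CGN was at -0.065 in the blocked fit without replicate 1 and -0.066 in the unpaired one, and ran from -0.035 to 0.18, EGFR from -0.055 to 0.25, BHLHE41 from -0.15 to 0.95 and ANGPTL4 from -0.31 to 0.89. With the longest transcript as length, PPARG stood at 3.98 CPM per kb with TIM-1 and 2.59 with the empty vector, FOXA1 at 0.819 and 0.704, RXRA at 15.2 and 15.2, TFAP2A at 17.2 and 16.4, and TFAP2C at 1.67 with TIM-1. These longest-transcript levels are the same CPM divided by a shorter length. The cause of each other change was not tested. Blocked fits without a pair have 1 residual degree of freedom. Depth limits GATA3, FOXA1 and the 4 genes near 0.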

Other observations

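Over all tested genes the paired test called 3.22% higher and 1.79% lower. Of 15 tested partners and coregulators 1 rose in the paired test and 0 fell, with a median log2 fold change of -0.032. CITED2, a coactivator known to work with AP-2 factors, averaged 95.1 ± 26.0 CPM in TIM-1 libraries and 73.1 ± 13.5 CPM in empty-vector libraries (SD, n = 3 each). It had a log2 fold change of 0.36 (edgeR adjusted p = 0.000596, unpaired 0.893), kept its call without each pair in turn, and exceeded replicates 2 and 3 by 0.54 in replicate 1. PPARGC1A, the PPARG coactivator gene, named after its values were seen, had no count in any library. Of 14 tested other transcription factors of urothelium 1 rose, the clock repressor gene BHLHE41, with 24.6 ± 14.5 CPM in TIM-1 libraries and 18.0 ± 9.21 CPM in empty-vector libraries (SD, n = 3 each). It had a log2 fold change of 0.42 (edgeR adjusted p = 0.0121, unpaired 0.937) and was higher in replicate 1 by 1.27. Its call was lost by DESeq2 with the block (0.223) and when the pair of replicate 1 (edgeR adjusted p = 0.132) or of replicate 2 (0.127) was left out. How far the replicate 1 difference bears on CITED2 and BHLHE41 was not tested.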
